A study of Mus musculus with 9 samples.

Results

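The clustered protocadherins are the cell-surface adhesion proteins encoded by the Pcdha, Pcdhb and Pcdhg gene arrays on mouse chromosome 18. They were chosen by symbol from the deposited count table, as every row named Pcdh followed by a, ac, b, ga, gb or gc and a number. The rule found 58 rows of 55335, of which 14 belonged to the alpha cluster, 22 to the beta cluster and 22 to the gamma cluster. The family itself was picked with earlier results of these data known, so the p-values below describe these libraries and are no independent support. Prelimbic cortex, part of the medial prefrontal cortex, was taken for bulk RNA-seq from 3 mice in each of 3 groups, on day 14 after surgery. Mice of the first group (R-HNK) had spared nerve injury (SNI), a model of neuropathic pain, and received R-HNK, a hydroxynorketamine, at 10 mg/kg. Mice of the second group (SNI) had the same injury and received saline, and mice of the third (Sham) had sham surgery and saline. All 9 mice had surgery and all 6 injured mice carried the same lesion, while strain, sex, age and the timing of the doses are unknown from the labels.

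Each alpha and gamma gene has its own large first exon and promoter, and is spliced to short last exons that all genes of that cluster share, whereas each beta gene is a separate gene with its own coding exon. A neuron transcribes a small set of these promoters, chosen largely at random and held by DNA methylation, CTCF and cohesin, while the C-type genes at the ends of the alpha and gamma arrays are used more evenly. The proteins bind copies of themselves on neighbouring membranes, which lets a neuron tell its own branches from those of others, and they shape dendrites, axon territories and the survival of interneurons.

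Library totals ran from 53624337 to 73586375 counts, and values are CPM (counts scaled to library size) after scaling by the trimmed mean of M-values, with SD over 3 mice. In 4 of the 9 libraries (R-HNK replicates 1 and 3, Sham replicates 2 and 3) the dopamine receptor Drd2, a marker of striatal neurons, stood above 10 CPM, at 17.5 to 44.0 CPM. In the other 5 libraries it lay at 1.23 to 1.72 CPM. The summed level of 14 striatal markers was 288 to 1021 CPM in R-HNK mice, 260 to 301 CPM in SNI mice and 301 to 1620 CPM in Sham mice. Among those markers, Six3 and Ido1 were at 0 in at least 1 library. Cortical excitatory markers (7 genes) summed to 6546 to 7058 CPM in R-HNK mice, 7171 to 7859 CPM in SNI mice and 5714 to 7439 CPM in Sham mice, so all 9 libraries carried them at a high level. In bulk tissue, fewer cells of a type and less RNA per cell cannot be told apart. Fold changes of Pcdhgb5, Pcdhgb8, Pcdhgc3, Pcdhgc5 and Pcdh20 are also given without those 4 libraries in 1 or more comparisons. Those of the other named genes are not.

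On the GENCODE M21 annotation of GRCm38 (mm10), the alpha genes lie at chr18:36930184-37187661, the beta genes at chr18:37264938-37524479 and the gamma genes at chr18:37661793-37841873. The last exons leave 2860 exon bases common to all 14 alpha genes and 2116 common to all 22 gamma genes, while no exon base is common to all beta genes. Of the 100-base windows in a gene's exons, a median of 56.2% in the alpha cluster, 0.2% in the beta cluster and 45.0% in the gamma cluster also occurred in another gene. How the counting treated reads in shared exons, and whether it used strand, is not stated in the sources at hand, so each alpha and gamma value carries that uncertainty. Other annotated genes (Gm37013, Gm37388, Gm38182 and Gm42416) overlap exons of all 22 gamma genes. In Pcdhgb5 and Pcdhgb8, described below, they cover only exon bases that are also shared with other gamma genes. The symbol Pcdha11 stood in 2 rows, called Pcdha11 i and Pcdha11 ii here in file order, and the annotation also holds 2 genes of that name.

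Gamma genes made up most of the family's counts. Their summed level was 66.2 to 71.4% of the family total in the 9 libraries, against 16.7 to 20.6% for the alpha genes and 10.7 to 14.1% for the beta genes. The gamma sum averaged 849 ± 23.7 CPM in R-HNK mice, 831 ± 56.6 CPM in SNI mice and 881 ± 16.8 CPM in Sham mice. The alpha sum was 225 ± 6.98 CPM in R-HNK mice, 236 ± 17.3 CPM in SNI mice and 223 ± 16.0 CPM in Sham mice. The beta sum was 154 ± 11.4 CPM in R-HNK mice, 150 ± 12.9 CPM in SNI mice and 163 ± 14.4 CPM in Sham mice. Groups overlapped for all 3 sums, and no cluster sum differed between group means by more than 0.12 on the log2 scale. These sums were not tested, since they are a description of a chosen family.

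**Figure D1:**
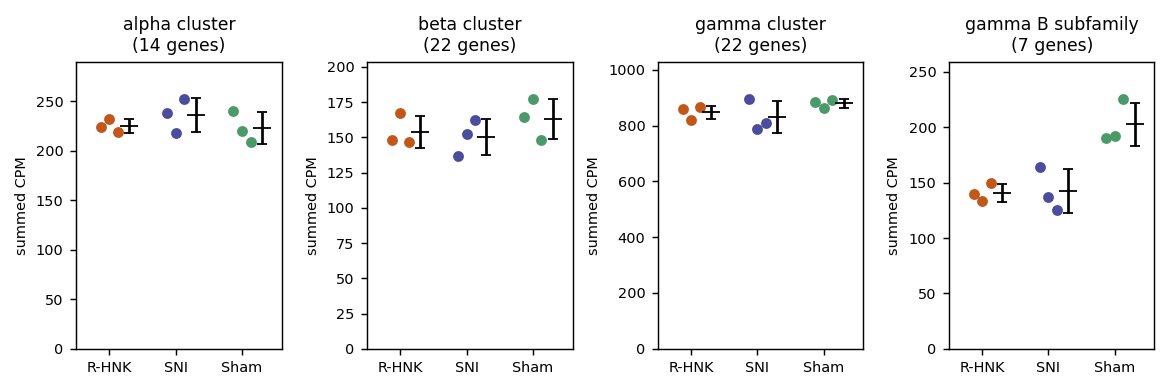
Summed CPM of the alpha, beta and gamma clusters and of the gamma B subfamily in each library (points), with the mean and SD of 3 mice beside them, for R-HNK, SNI and Sham mice. The cluster sums lie close together, while the gamma B sum lies at 126 to 164 CPM in SNI mice and 134 to 150 CPM in R-HNK mice, below the 190 to 225 CPM of Sham mice.

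Within the gamma cluster, the A subfamily (12 genes) summed to 313 ± 12.4 CPM in R-HNK mice, 286 ± 28.2 CPM in SNI mice and 302 ± 18.8 CPM in Sham mice. The B subfamily (7 genes) summed to 141 ± 8.14 CPM in R-HNK mice, 142 ± 19.8 CPM in SNI mice and 203 ± 19.6 CPM in Sham mice. Both injured groups lay below every Sham library for the B sum, by 0.52 (R-HNK against Sham) and 0.51 (SNI against Sham) on the log2 scale of the means. With Pcdhgb8 left out, the B sum was 136 ± 7.41 CPM in R-HNK mice, 108 ± 23.9 CPM in SNI mice and 131 ± 31.1 CPM in Sham mice, and the groups overlapped. The 3 C-type gamma genes summed to 395 ± 28.9 CPM in R-HNK mice, 403 ± 30.4 CPM in SNI mice and 376 ± 34.4 CPM in Sham mice.

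Levels of different genes were compared per kilobase of exon bases that no other annotated gene covers, as the mean over all 9 libraries. On this scale the cluster medians were 9.68 CPM per kb for gamma genes, 5.47 for alpha genes and 1.44 for beta genes. With all exon bases counted they were 5.28, 2.19 and 1.44 CPM per kb. The gap between alpha and beta genes thus depended on the length used. By bases that no other gene covers, the C-type genes Pcdhgc3 and Pcdhgc5 led the family at 58.0 and 55.0 CPM per kb. Pcdhgc5 led at 33.2 CPM per kb when all exon bases were counted, against 19.2 for Pcdhgc3. Their order therefore turned with the length used. By bases that no other gene covers, Pcdhga11 and Pcdha4, which are not C-type genes, followed at 37.9 and 30.45 CPM per kb. Pcdha4 had only 404 such bases and ranked at 33 by all exon bases. Pcdhac2, the last gene of the alpha array, had 28.7 CPM per kb, and Pcdhgc4 had 9.27. Pcdhac1, also a C-type gene, had 3.13 CPM per kb and ranked at 32 of 55 genes with such a length. Across genes, later position in the array tended to go with a higher level per kb in each cluster, with Spearman coefficients of 0.37 (alpha), 0.50 (beta) and 0.41 (gamma). Genes share the libraries and are no independent replicates, so these coefficients are a description. The 10 highest genes by either length shared 8 names.

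**Figure D2:**
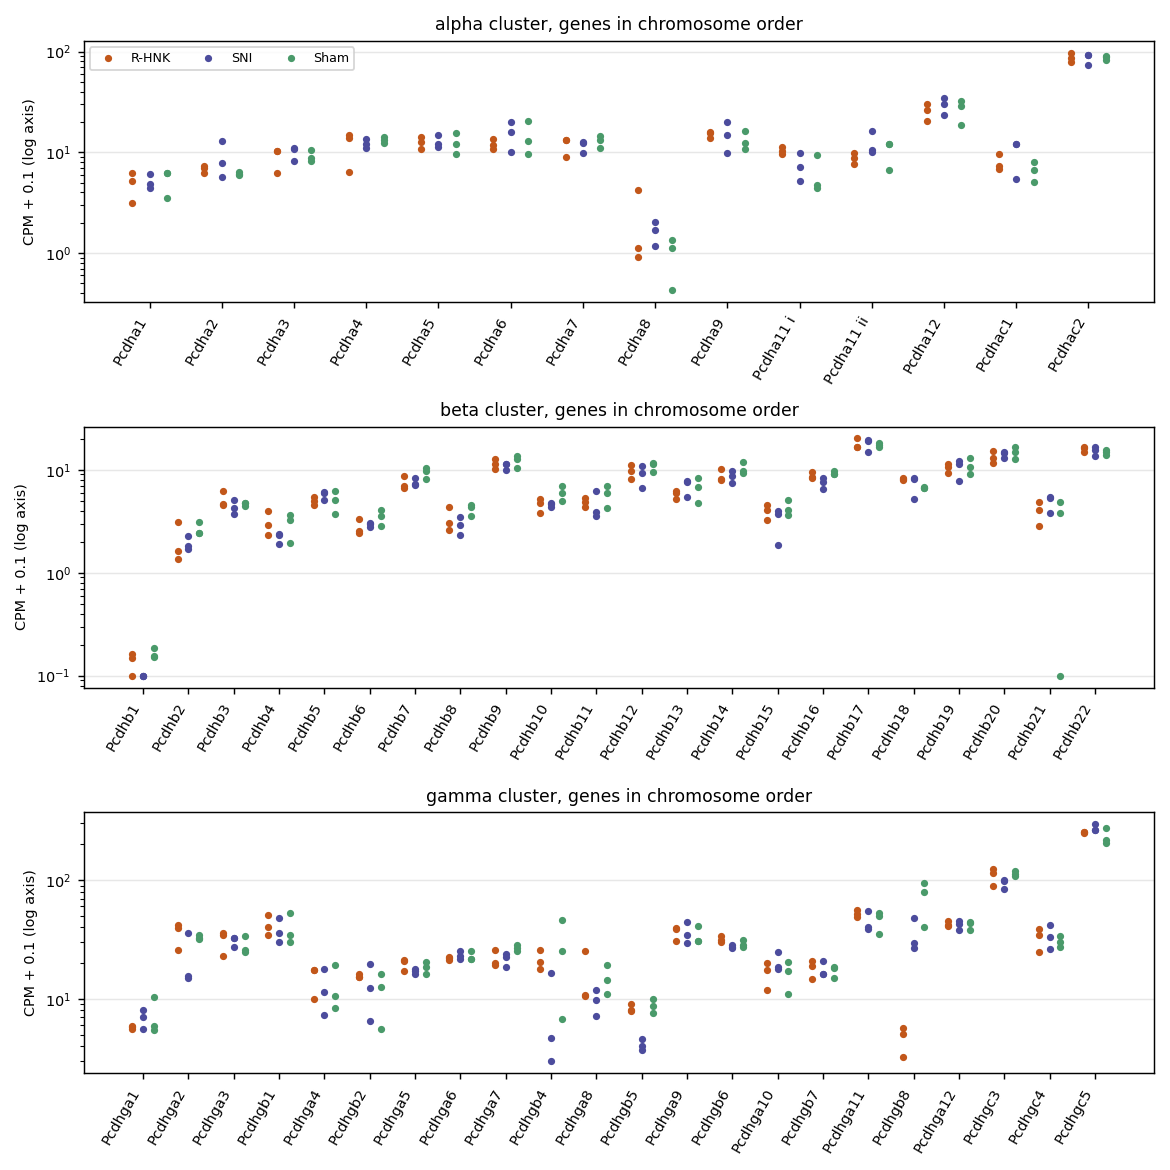
CPM + 0.1 (log axis) of all 58 members in each library, with genes of the alpha, beta and gamma clusters in chromosome order and R-HNK, SNI and Sham libraries side by side; values are not scaled by gene length. Pcdhgc5 and Pcdhgc3 lie highest, Pcdhb1 lies lowest, and the single low point of Pcdhb21 is Sham replicate 3 at 0 counts.

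Pcdhgc5, a C-type gamma gene, had the largest share of the cluster's counts in every library. Its level was 256, 247 and 255 CPM in R-HNK mice, 295, 265 and 265 CPM in SNI mice and 274, 217 and 206 CPM in Sham mice. The R-HNK values lay below all SNI values and within the Sham range. The test gave 0.24 ± 0.10 (SE, log2) for SNI against Sham with an adjusted p of 0.225 (edgeR quasi-likelihood test, Benjamini-Hochberg over all genes tested). For R-HNK against SNI it gave -0.12 ± 0.10 with an adjusted p of 0.785. The difference SNI against Sham was 0.095 on the log2 scale with a score of striatal markers as a covariate. Without the 4 libraries raised in striatal markers, which leaves Sham replicate 1 alone, it was 0.0096.

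Pcdhgc3, which in mouse cortex promotes dendrite branching, had 115, 89.7 and 124 CPM in R-HNK mice, 99.5, 98.4 and 84.9 CPM in SNI mice and 108, 112 and 120 CPM in Sham mice. All SNI values lay below all Sham values, and the R-HNK values spanned both groups. The difference SNI against Sham was -0.27 ± 0.11 (SE, log2), with an edgeR adjusted p of 0.241. With a score of striatal markers as a covariate this difference was -0.07. Without the 4 libraries raised in striatal markers, which leaves Sham replicate 1 alone, it was -0.18. Pcdhgc4, needed in mice for the survival of cortical interneurons, had 38.8, 24.6 and 34.2 CPM in R-HNK mice, 41.5, 32.9 and 26.4 CPM in SNI mice and 34.0, 27.4 and 30.2 CPM in Sham mice. Its groups overlapped in all 3 comparisons.

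Pcdhac2, which serotonergic axons need in order to spread evenly, had 86.0, 97.7 and 79.5 CPM in R-HNK mice, 91.8, 73.2 and 93.4 CPM in SNI mice and 90.9, 88.6 and 81.5 CPM in Sham mice. Its 3 fold changes lay between -0.01 and 0.03 on the log2 scale, each with an SE of 0.10. Pcdhac1 had 9.41, 7.20 and 6.67 CPM in R-HNK mice, 12.1, 5.28 and 11.9 CPM in SNI mice and 7.88, 5.01 and 6.58 CPM in Sham mice. Among the SNI libraries of Pcdhac1, replicate 2 lay below all R-HNK libraries and the other 2 above them.

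**Figure D3:**
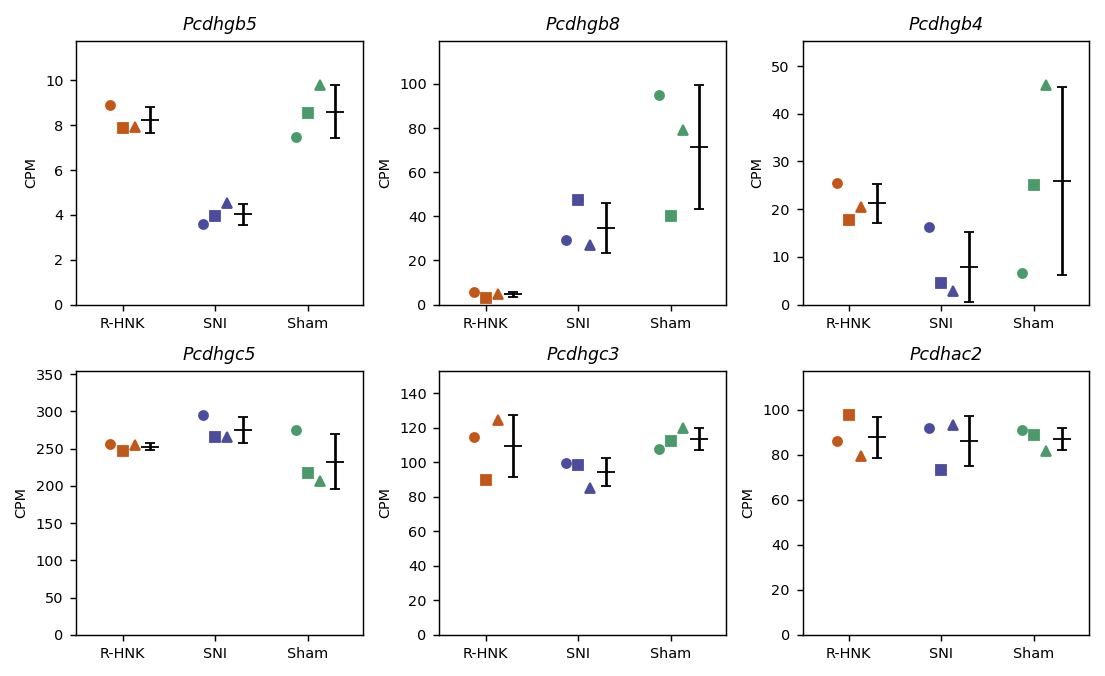
CPM of 6 protocadherins in each library (circles, squares and triangles for replicates 1, 2 and 3) with mean and SD of 3 mice, for R-HNK, SNI and Sham mice; axes start at 0. Pcdhgb5 is lowest in the 3 SNI mice (3.60 to 4.52 CPM), Pcdhgb8 is lowest in the 3 R-HNK mice (3.14 to 5.56 CPM), Pcdhgb4 varies widely within groups, and Pcdhgc5, Pcdhgc3 and Pcdhac2 stay at 206 to 295, 84.9 to 124 and 73.2 to 97.7 CPM.

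The effect of the injury was read from SNI mice set against Sham mice. Of 57 members that passed the filter on low counts, Pcdhgb5 alone passed the test, and it was lower in SNI mice. Over all 21765 genes tested, 1.07% were called in this comparison. Without adjustment, 9 members (15.8%) had a p under 0.05, against 16.6% of all genes tested. Fold changes were positive for 24 members and negative for 33, with a median of -0.05 against -0.02 for all genes tested. The medians were 0.13 in the alpha cluster, where 10 of 14 were positive, -0.25 in the beta cluster, where 15 of 21 were negative, and -0.05 in the gamma cluster. No alpha or beta gene was called by edgeR (1 and 3 with an unadjusted p under 0.05) or by DESeq2, which called 6.33% of the genes it tested in this comparison.

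Pcdhgb5 (ENSMUSG00000103749, chr18:37731009-37841873, plus strand) encodes a gamma B protocadherin. It had 8.90, 7.86 and 7.93 CPM in R-HNK mice, 3.60, 3.95 and 4.52 CPM in SNI mice and 7.47, 8.55 and 9.80 CPM in Sham mice, from 207 to 659 counts a library. The SNI libraries lay below the other 6, which overlapped with each other. The log2 fold change SNI against Sham was -1.10 ± 0.15 (SE), with an edgeR adjusted p of 0.00491, and Pcdhgb5 was lower in 3 of 3 SNI mice than in any Sham mouse. It made up 0.402 to 0.558% of the gamma counts in SNI mice and 0.843 to 1.10% in Sham mice. Without the 4 libraries raised in striatal markers, which leaves 1 Sham library at 7.47 CPM, the fold change was -0.89 with an adjusted p of 0.22, and the lone library is assumed to vary like the others. With a score of striatal markers as a covariate it was -0.93 with an adjusted p of 0.0513.

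Marker lists of neuroblasts and of meningeal fibroblasts moved with Pcdhgb5 across the groups. Neuroblast markers (10 genes, none at 0) summed to 191 to 233 CPM in R-HNK mice, 127 to 130 CPM in SNI mice and 220 to 262 CPM in Sham mice. Meningeal fibroblast markers (9 genes, Lum at 0 in at least 1 library) summed to 38.9 to 52.9 CPM in R-HNK mice, 29.1 to 33.3 CPM in SNI mice and 45.9 to 68.0 CPM in Sham mice. Both sums were lower in all SNI libraries than in the other 6, and their part in the Pcdhgb5 result was not tested.

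In 7 members (12.3%) all SNI values lay below all Sham values, and in none above, while 21.7% of all genes tested did not overlap between these groups and 10.9% lay below. These were Pcdhb2, Pcdhb8, Pcdhb10, Pcdhb16, Pcdhga7, Pcdhgb5 and Pcdhgc3, singled out after their values were seen. Pcdhb8, a beta protocadherin, had 2.80, 3.37 and 2.21 CPM in SNI mice against 4.41, 4.25 and 3.49 CPM in Sham mice, with a log2 fold change of -0.54 ± 0.24 (SE) and an edgeR adjusted p of 0.28. Pcdhb16 had 7.51, 6.33 and 8.28 CPM in SNI mice against 9.03, 9.66 and 8.93 CPM in Sham mice, a log2 fold change of -0.32 ± 0.13 (SE, edgeR adjusted p of 0.253). Neither beta gene passed the test. Pcdhb10 had 4.68, 4.27 and 4.51 CPM in SNI mice against 6.79, 5.87 and 4.91 CPM in Sham mice (edgeR adjusted p of 0.301).

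Pcdhga7, a gamma A gene, had 18.5, 23.9 and 22.2 CPM in SNI mice and 25.0, 28.5 and 26.9 CPM in Sham mice, with a log2 fold change of -0.31 ± 0.13 (SE, edgeR adjusted p of 0.235). Its R-HNK values of 19.3, 25.8 and 20.1 CPM spanned both groups. Pcdhb2, the beta gene with the lowest CPM among those tested, had 2.17, 1.58 and 1.73 CPM in SNI mice and 2.97, 2.32 and 2.33 CPM in Sham mice. Among alpha genes, Pcdha2 had 5.53, 12.8 and 7.79 CPM in SNI mice and 6.31, 6.04 and 5.82 CPM in Sham mice. SNI replicate 2 of Pcdha2 lay far above the other libraries, and the fold change was 0.52 ± 0.24 (SE, log2) with an edgeR adjusted p of 0.293.

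**Figure D4:**
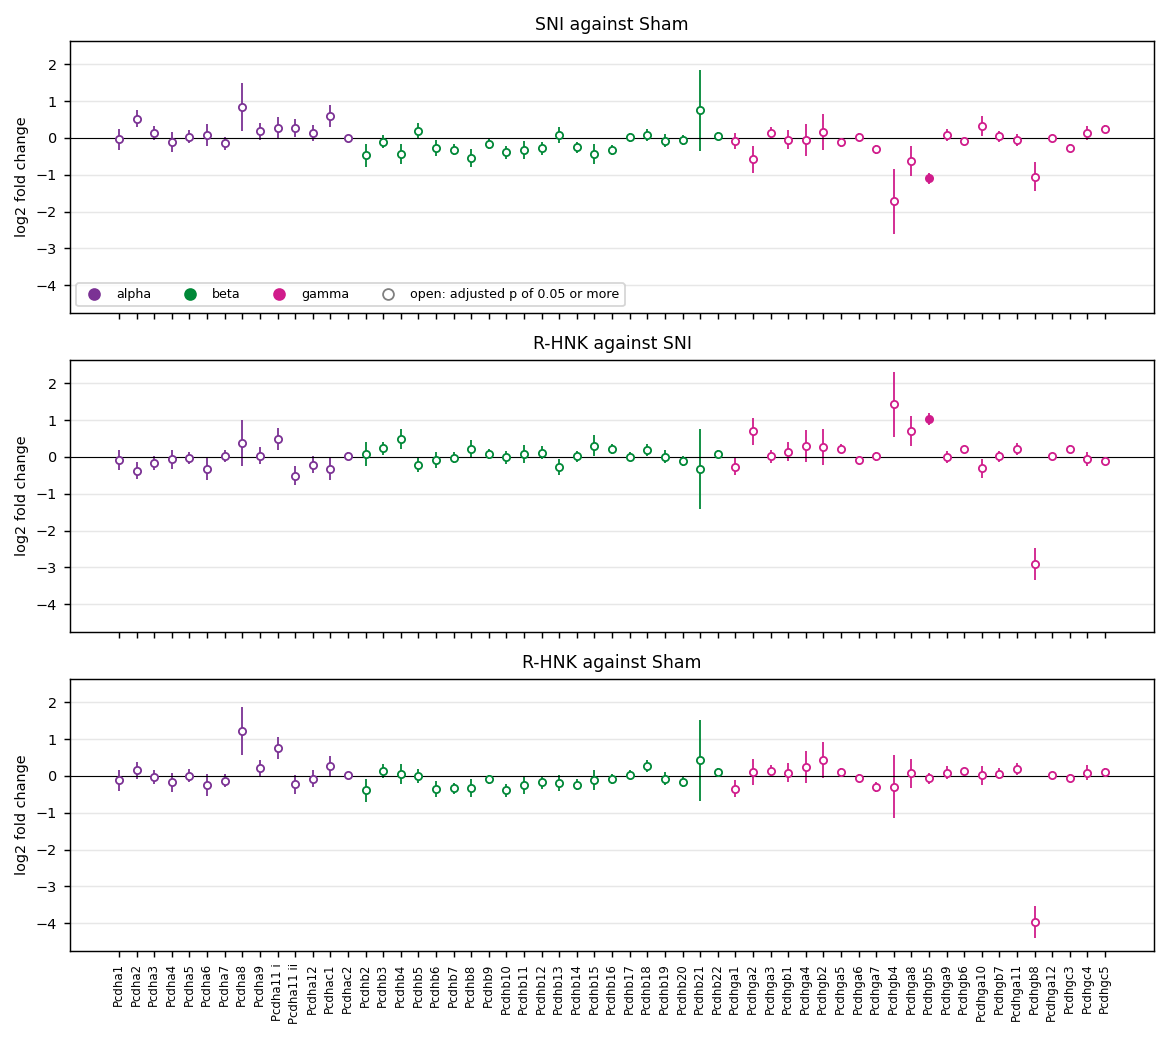
Log2 fold change with its SE (edgeR) of the 57 tested members in array order, for SNI against Sham, R-HNK against SNI and R-HNK against Sham; filled points have an adjusted p under 0.05. Pcdhgb5 is filled in the first and the second panel (-1.10 and 1.03), and Pcdhgb8 lies farthest from 0 in the panels with R-HNK (-2.92 and -3.96) as an open point.

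What the compound changed in injured mice was read from R-HNK mice set against SNI mice. Pcdhgb5 again passed the test alone among the 57 members, now as higher in R-HNK mice, where 0.119% of all genes tested were called. The log2 fold change was 1.03 ± 0.15 (SE), with an edgeR adjusted p of 0.0209, and 3 of 3 R-HNK mice lay above every SNI mouse. This comparison uses the same SNI libraries as the one with Sham mice, so the opposite signs are not independent of each other. The adjusted p was 0.293 without the 4 libraries raised in striatal markers (fold change 0.96) and 0.0512 with the marker score as a covariate (fold change 0.92). It also rose above 0.05 on leaving out SNI replicate 1 (0.101), 2 (0.165) or 3 (0.0601), or R-HNK replicate 1 (0.154) or 3 (0.0738), with fold changes of 0.95 to 1.13 in these 5 fits. Directly between R-HNK and Sham mice, Pcdhgb5 differed by -0.06 ± 0.15 (SE, log2).

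In R-HNK against SNI, 3 members (5.26%), Pcdhgb5 among them, had an unadjusted p under 0.05, against 7.47% of all genes tested. Fold changes were positive for 35 members and negative for 22, with a median of 0.02 against 0.01 for all genes tested. The groups did not overlap in 6 members (10.5%), against 13.7% of all genes tested. They were Pcdhgb4, Pcdhgb5 and Pcdhgb6, higher in R-HNK mice, and Pcdhgb8, Pcdhgc5 and Pcdha11 ii, lower. Thus 4 of the 6 belonged to the gamma B subfamily of 7 genes, in both directions, an observation made after the values were seen and not tested. Pcdhgb6 had 31.4, 34.0 and 30.1 CPM in R-HNK mice against 26.7, 28.4 and 27.0 CPM in SNI mice. Pcdha11 ii had 7.54, 8.64 and 9.65 CPM in R-HNK mice against 10.5, 9.88 and 16.3 CPM in SNI mice, with an edgeR adjusted p of 0.688. Its Sham values of 11.9, 11.9 and 6.51 CPM overlapped both groups. The beta gene with the smallest p, Pcdhb4, had 3.84, 2.79 and 2.25 CPM in R-HNK mice against 2.26, 1.82 and 2.22 CPM in SNI mice, a log2 fold change of 0.49 ± 0.28 (SE, edgeR adjusted p of 0.702).

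Pcdhgb8 (ENSMUSG00000103081, chr18:37761801-37841870, plus strand), which the annotation calls a polymorphic pseudogene, had the largest fold changes of the family in both comparisons with R-HNK. It had 5.56, 3.14 and 5.01 CPM in R-HNK mice, 29.4, 47.6 and 26.8 CPM in SNI mice and 94.9, 40.3 and 79.3 CPM in Sham mice. All R-HNK values lay far below those of the other groups, while SNI and Sham values overlapped. As a share of all gamma counts it was 0.382 to 0.648% in R-HNK mice, 3.28 to 6.04% in SNI mice and 4.67 to 10.7% in Sham mice. The log2 fold change R-HNK against SNI was -2.92 ± 0.43 (SE), with an unadjusted p of 0.000324 and an adjusted p of 0.175 by edgeR. For R-HNK against Sham it was -3.96 ± 0.44 (SE), with an unadjusted p of 6.23e-05 and an adjusted p of 0.678 by edgeR. The edgeR test therefore did not call it, whereas DESeq2 did in both, with adjusted p-values of 3.65e-10 and 2.63e-19 in comparisons where it called 0.615% and 0.0403% of the genes it tested.

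The call for Pcdhgb8 thus depended on the tool, although its R-HNK values lay below all others in 3 of 3 mice. Fitted with R-HNK and SNI mice alone, edgeR gave an adjusted p of 0.0292, and without Sham replicate 2 it gave 0.045 for R-HNK against SNI. Without the 4 libraries raised in striatal markers, 1 R-HNK library (3.14 CPM) was left against 3 SNI libraries, and the fold change was -3.46 with an adjusted p of 0.712. The R-HNK libraries with raised striatal markers had 5.56 and 5.01 CPM of Pcdhgb8, and the library without them had 3.14 CPM. The part of striatal cells in this level was not tested.

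In R-HNK against Sham, edgeR called none of the 57 members and DESeq2 called Pcdhgb8 alone. An unadjusted p under 0.05 was found in 5 members (8.77%), against 3.53% of all genes tested. Over all genes, edgeR called 0.00459%. Fold changes were positive for 28 members and negative for 29, with a median of -0.01 against -0.01 for all genes tested. In 3 members (5.26%) the groups did not overlap, against 8.85% of all genes tested. These were Pcdhgb8, lower in R-HNK mice, and Pcdhb18 and Pcdha11 i, higher. Pcdhb18 had 8.01, 8.22 and 7.88 CPM in R-HNK mice against 6.77, 6.60 and 6.62 CPM in Sham mice. Pcdha11 i had 9.44, 10.3 and 11.2 CPM in R-HNK mice, 5.13, 7.08 and 9.70 CPM in SNI mice and 9.33, 4.28 and 4.64 CPM in Sham mice, with a log2 fold change of 0.76 ± 0.30 (SE, edgeR adjusted p of 1) for R-HNK against Sham. Sham replicate 1 of Pcdha11 i lay near the R-HNK values and the other 2 well below them. Pcdhb7 had 6.86, 8.60 and 6.62 CPM in R-HNK mice against 9.54, 10.3 and 8.02 CPM in Sham mice, a log2 fold change of -0.34 ± 0.15 (SE, edgeR adjusted p of 1).

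The members with the highest and lowest CPM in each cluster, not scaled by length, were also read by library. Pcdha12, second to Pcdhac2 in CPM among alpha genes, had 20.1, 26.0 and 29.8 CPM in R-HNK mice, 23.5, 34.2 and 30.01 CPM in SNI mice and 32.5, 28.9 and 18.7 CPM in Sham mice. The beta genes with the highest CPM, Pcdhb17 and Pcdhb22, averaged 17.7 ± 2.00 and 16.0 ± 0.896 CPM in R-HNK mice, 17.6 ± 2.56 and 15.1 ± 1.63 CPM in SNI mice and 17.3 ± 0.754 and 14.7 ± 0.740 CPM in Sham mice. The groups overlapped for both genes in all 3 comparisons. The gamma gene with the lowest CPM, Pcdhga1, had 5.66 ± 0.181 CPM in R-HNK mice, 6.79 ± 1.25 CPM in SNI mice and 7.19 ± 2.73 CPM in Sham mice. The alpha gene with the lowest CPM, Pcdha8, had 4.13, 0.820 and 1.01 CPM in R-HNK mice, 1.08, 1.58 and 1.94 CPM in SNI mice and 1.01, 0.331 and 1.24 CPM in Sham mice. R-HNK replicate 1 of Pcdha8 stood above all other libraries.

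Pcdhb1 did not pass the filter. It had 0, 4 and 3 counts in R-HNK mice, 0 counts in all 3 SNI mice and 5, 3 and 3 counts in Sham mice. The values are close to the limit that a count of 0 allows, which is 3 counts, or 0.0405 to 0.0546 CPM in these libraries.

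Members varied more between mice of a group than other genes did. The SD of log2 CPM within groups had a median of 0.27 over the 57 members tested and 0.21 over all genes tested. Among genes of at least 5 CPM on average, it was 0.26 over 46 members against 0.12 over 12119 genes. By cluster the median was 0.37 for alpha, 0.23 for beta and 0.25 for gamma genes. Set beside genes of like mean level, 26 of 57 members (45.6%) lay above the 90th percentile of that SD, which 10% of all genes exceed by construction. These were 11 of 14 alpha genes, 3 of 21 beta genes and 12 of 22 gamma genes. This is a description of the table, and shared exons, counting and the mice cannot be told apart in it.

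**Figure D5:**
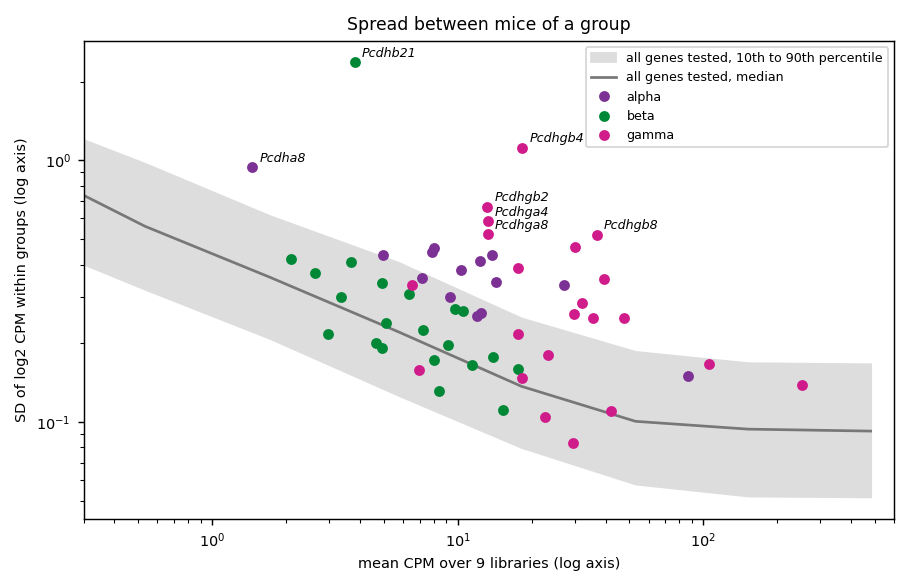
Within-group SD of log2 CPM (9 libraries, 3 groups) against mean CPM on a log axis, for the 57 members by cluster, with the median and the 10th to 90th percentile of all genes tested in classes of mean level, joined by straight lines. Counted by class, most alpha genes (11 of 14) and 12 of 22 gamma genes lie above the 90th percentile of genes of like level, against 3 of 21 beta genes.

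The most variable members, named after their values were seen, were Pcdhb21, Pcdhgb4 and Pcdha8, with SDs of 2.37, 1.12 and 0.94, and the least variable was Pcdhgb6 with 0.08. Pcdhb21 had 0 counts in Sham replicate 3 and 176 to 339 counts in the other 8 libraries. At that library's depth, a count of 0 allows up to 0.0546 CPM, whereas the other 8 lay at 2.75 to 5.38 CPM. Pcdhgb4 had 25.6, 17.6 and 20.4 CPM in R-HNK mice, 16.3, 4.57 and 2.88 CPM in SNI mice and 6.68, 25.0 and 46.1 CPM in Sham mice, a ratio of 16.0 between the highest and lowest library. Its R-HNK values lay above all SNI values, and the Sham values spanned both groups. Sham replicates 2 and 3 of Pcdhgb4 were among the libraries raised in striatal markers, and the part of those cells in its level was not tested.

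Genes that act on or with the family were counted from lists set up with earlier results known. Of 22 genes that control the clusters (CTCF, cohesin, DNA methylation and histone marks), edgeR called 0 in each comparison. Unadjusted p-values under 0.05 numbered 3 for SNI against Sham, 2 for R-HNK against SNI and 1 for R-HNK against Sham. Of all genes tested, 16.6%, 7.47% and 3.53% had such a p in these comparisons. DESeq2 called 1, 0 and 0 of the 22, against 6.33%, 0.615% and 0.0403% of all the genes it tested. Tet1, an enzyme that oxidises methylated cytosine, had 13.8, 15.3 and 17.0 CPM in R-HNK mice, 11.3, 12.4 and 13.4 CPM in SNI mice and 15.2, 17.3 and 18.4 CPM in Sham mice. Its SNI values lay below all others, with log2 fold changes of -0.45 ± 0.12 (SE) for SNI against Sham (edgeR adjusted p of 0.0822, called by DESeq2) and 0.31 ± 0.12 for R-HNK against SNI (edgeR adjusted p of 0.606). Setdb1, a histone methyltransferase that acts on the clusters in mouse neurons, had the smallest p in R-HNK against Sham, with 0.17 ± 0.08 (SE, log2, edgeR adjusted p of 1).

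Of 21 partners and effectors (focal adhesion kinases, the WAVE complex and others), edgeR again called 0 in each comparison. Unadjusted p-values under 0.05 numbered 4 for SNI against Sham and 0 in the other comparisons. DESeq2 called Marcks and Prkca in the first and none in the others. In SNI against Sham, 16.6% of all genes tested had such a p, and DESeq2 called 6.33% of the genes it tested. Marcks, an actin-binding substrate of protein kinase C, had 224, 235 and 230 CPM in R-HNK mice, 210, 218 and 204 CPM in SNI mice and 236, 260 and 256 CPM in Sham mice. SNI values of Marcks lay below all others, with a log2 fold change of -0.25 ± 0.06 (SE, edgeR adjusted p of 0.0737) for SNI against Sham and 0.12 ± 0.06 (adjusted p of 0.689) for R-HNK against SNI. Prkca, which encodes a protein kinase C, differed by -0.36 ± 0.11 (SE, log2) in SNI against Sham, with an edgeR adjusted p of 0.138. In R-HNK against Sham it differed by -0.24 ± 0.11, with an edgeR adjusted p of 1.

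Of 12 non-clustered protocadherins, which lie outside the arrays, Pcdh20 was called as lower in SNI against Sham, and the other 11 were not called. Over all genes tested, edgeR called 1.07% in this comparison. An unadjusted p under 0.05 was found in 3 of the 12, against 16.6% of all genes tested. DESeq2 called Pcdh20 alone of the 12, and 6.33% of all the genes it tested. Pcdh20 had 14.9, 19.0 and 14.5 CPM in R-HNK mice, 11.3, 9.28 and 11.1 CPM in SNI mice and 19.1, 20.8 and 18.2 CPM in Sham mice. The SNI values lay below all others, with a log2 fold change of -0.87 ± 0.13 (SE, edgeR adjusted p of 0.00707) for SNI against Sham. Leaving out the 4 libraries with raised striatal markers gave a fold change of -0.85 with an adjusted p of 0.0589, and with the striatal score as a covariate it was -1.003 with an adjusted p of 0.0113. The neuroblast and meningeal fibroblast marker sums given beside Pcdhgb5 were lowest in the SNI libraries here too, and their part in the Pcdh20 result was not tested. In R-HNK against SNI the Pcdh20 fold change was 0.61 ± 0.13 (SE, edgeR adjusted p of 0.181). There 4 of the 12 had an unadjusted p under 0.05, against 7.47% of all genes tested. EdgeR called 0 of the 12, and DESeq2 called Pcdh20 and 0.615% of all the genes it tested. In R-HNK against Sham edgeR called 0, 1 had an unadjusted p under 0.05 (Pcdh11x, -0.32 ± 0.11, edgeR adjusted p of 1) and DESeq2 called 0. Of all genes tested, 3.53% had such a p in that comparison.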

How the data were processed

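Bulk RNA-seq of prelimbic cortex was analysed in 9 libraries, 3 mice in each of 3 groups taken from the labels. The deposited table holds expected counts (whole numbers) per gene symbol that the authors left without normalization. The submitters' processing notes name HISAT2 2.0.5, featureCounts 1.5.0-p3 and mm10, whereas the deposited table carries StringTie in its name. Strand settings are not given in the sources used here.

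All rows were kept apart. Genes were filtered with filterByExpr, which kept 21765 genes with 99.96% of counts, scaled by the trimmed mean of M-values and fitted in 1 model of 3 group means with edgeR 4.0.16 (robust quasi-likelihood test, R 4.3.3, limma 3.58.1). P-values were adjusted by Benjamini-Hochberg over all genes tested, with a threshold of 0.05. DESeq2 1.42.0 was an alternative. The fit was tested on simulated data. Libraries of a group differed by far more than counting noise (mean chi-square per gene of 18.9 to 60.9), so none was a duplicate. With 3 against 3 mice, an exact permutation test of a single value could not go below a p of 0.1. Depth allowed 3 counts, or 0.0405 to 0.0546 CPM, for a count of 0, and such limits cover counting error only.

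Exon lengths came from GENCODE M21, in which 56 members had a unique match. Members named by rule were those called in any comparison, the 2 with the smallest p in each cluster and comparison, the 2 highest and the lowest of each cluster, and the C-type genes. Their values are printed for all libraries, as group means, or for the 2 compared groups only. Members and lists were chosen with earlier results of these data known.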

Additional observations from a re-analysis of the deposited data

How the results depend on the processing

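Of 17 other settings, Pcdhgb5 was called in 15 for SNI against Sham and in 9 for R-HNK against SNI, and it kept its sign in all 17 for both. Members called in SNI against Sham numbered 1 in the chosen fit, 0 with the striatal score as a covariate, 0 without the 4 libraries raised in striatal markers and 1 to 2 on leaving out each library (Pcdhgc5 was added without Sham replicate 1, Pcdhga2 without SNI replicate 3). In R-HNK against SNI they numbered 1, against 0 with the replicate block, 0 with the covariate, 0 without the 4 libraries, 2 with the groups alone, 2 with DESeq2 (Pcdhgb8 added in both) and 0 to 2 on leaving out each library. In R-HNK against Sham they numbered 0, against 1 with DESeq2 (Pcdhgb8). The cause was not tested. For R-HNK against Sham, leaving out the 4 libraries left R-HNK replicate 2 alone against Sham replicate 1. The summed gamma level then differed by -0.11 on the log2 scale, and by -0.05 with all libraries. Replicate numbers did not pair the libraries (correlations of deviations from -0.10 to 0.09; 1, 0 and 2 of 6 libraries correlated best with their own number in the 3 comparisons), and the block left 1 member called in SNI against Sham, Pcdhgb5, with an adjusted p of 0.0166, while in R-HNK against SNI its fold change was 1.04 with an adjusted p of 0.0553. Over all genes, SNI against Sham gave 233 calls, 370 without the filter, 94 with the covariate, 86 without the 4 libraries, 1140 with DESeq2 and 60 to 1170 on leaving out each library. R-HNK against SNI gave 26 calls, 16 with the block, 53 with the groups alone, 140 with DESeq2 and 7 to 56 on leaving out each library. R-HNK against Sham gave 1 call, 2 with the block, 10 with DESeq2 and 1 to 11 on leaving out each library. No called value changed sign in these settings, and 68 uncalled fold changes of single genes did. With 3 mice a group, and values of alpha and gamma genes that rest partly on shared exons, differences of the size of the spread between mice were not detectable.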
